A study of Mus musculus with 3 samples.

Results

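The retina of C57 mice treated with cavtratin was compared with that of mice treated with AP, the labelled control, both collected 2 hr after injection into the vitreous. Each treatment was measured on 1 array, and the comparison uses 2 of the 3 arrays of the study. Every array held RNA pooled from 5 to 6 retinae, so a difference compares 2 pools, with no spread between animals, and no test was run. The labels do not expand AP, and give no age, sex, dose or vehicle. They name no genetic change in the mice. The third array, Cav1-shRNA at 2 days after injection, shares neither the agent nor the time. Its values are given beside the others as a level only. No array of uninjected retina was analysed here, so both arrays of the comparison follow an injection. The comparison covers the 22180 genes that a platform annotation named from a probe set with 1 gene symbol. A probe set is the group of probes that reports 1 transcript.

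Cavtratin is a cell-permeable peptide that joins the scaffolding domain of caveolin-1 to a cell-penetrating sequence from the Antennapedia protein. Caveolin-1 is the main protein of caveolae, small pits of the plasma membrane that are dense in vascular endothelium and also occur in Muller glia, and the scaffolding domain is known for holding endothelial nitric oxide synthase and other signalling proteins in a low-activity state. The neural retina holds photoreceptors, interneurons and ganglion cells, supported by Muller glia, with microglia as its resident immune cells. In an inflamed retina, chemokines and adhesion molecules recruit neutrophils and monocytes from retinal vessels, and cytokines act on glia, endothelium and the arriving cells.

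All values below are log2 values as deposited, and a difference is the cavtratin value minus the AP control value, so that 1 stands for 2-fold. Where 3 values follow a gene, they belong to AP control, cavtratin and Cav1-shRNA in that order. An expression floor of 6.50, the median over probe sets with 1 symbol, marks values too low to be read with confidence, and 11477 genes reached it in the higher array of the pair. The array medians were 6.07, 6.06 and 6.01. Deposited values were exactly equal, to within 1e-09, in 54.5% of genes at the floor, so a difference of 0 carries less information here than on arrays without such ties. The labelled tissue was checked against its markers. All 14 measured rod genes lay at or above the floor in both arrays, between 9.69 and 13.19 in AP control.

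At 2 hr, cavtratin stood 2-fold or more above AP control in 156 of 11477 genes (1.36%) and as far beneath it in 11 (0.0958%). At 1.5-fold the shares were 2.19% and 0.235%. The higher genes were led by chemokines, interleukin-1 family cytokines, myeloid receptors, secreted granulocyte proteins and lens crystallins. The lower genes were led by the chemokines Cxcl10, Ccl2 and Ccl7, guanylate-binding proteins and the cytokine genes Il6 and Lif. Retinal neuron genes, caveolins, junction proteins and vascular growth factors differed little. In bulk tissue more RNA per cell and more cells of a type cannot be told apart, and the same holds for less RNA and fewer cells. Of the higher genes 70 were 2- to 3-fold apart, 29 3- to 4-fold, 43 4- to 8-fold and 14 at least 8-fold. The lower genes held 6 that were 2- to 3-fold apart, 2 that were 3- to 4-fold, 2 that were 4- to 8-fold and 1 beyond 8-fold.

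Most of the distribution was narrow. Over genes at the floor the 1st and 99th percentiles of the difference were -0.26 and 1.30. Differences below 0 were more frequent than those above 0, 25.9% against 19.6%, although large differences were mostly positive. Over all 22180 genes, 17.5% were above 0, 20.9% below and 61.6% equal. Counts of list members above, below or equal to 0 are to be read against these shares. Counts of members at least 2-fold apart are to be read against 1.36% higher and 0.0958% lower over genes at the floor. The higher genes had a median of 6.41 in AP control, 8.40 in cavtratin and 7.36 in Cav1-shRNA. AP control was beneath the floor in 85 of the 156, and these folds can be too small. Such genes reach the floor only through the cavtratin array, in the lists below as well. The lower genes had medians of 8.12, 6.87 and 6.50, and 4 of the 11 fell below the floor in cavtratin. With genes at the floor split into 10 equal groups by mean level, the dimmest group held 47 of the higher genes and the brightest 5. The dimmest group starts at a mean of 5.83, and a gene with a mean beneath the floor is counted only if its arrays differ. Its large count is therefore partly set by the counting rule. Of the 156 higher genes, 126 had a mean at or above the floor. For 279 genes read by more than 1 probe set at the floor, the differences of the probe sets scattered with an SD of 0.14, which measures probe and isoform spread within these arrays and not spread between animals.

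**Figure D1:**
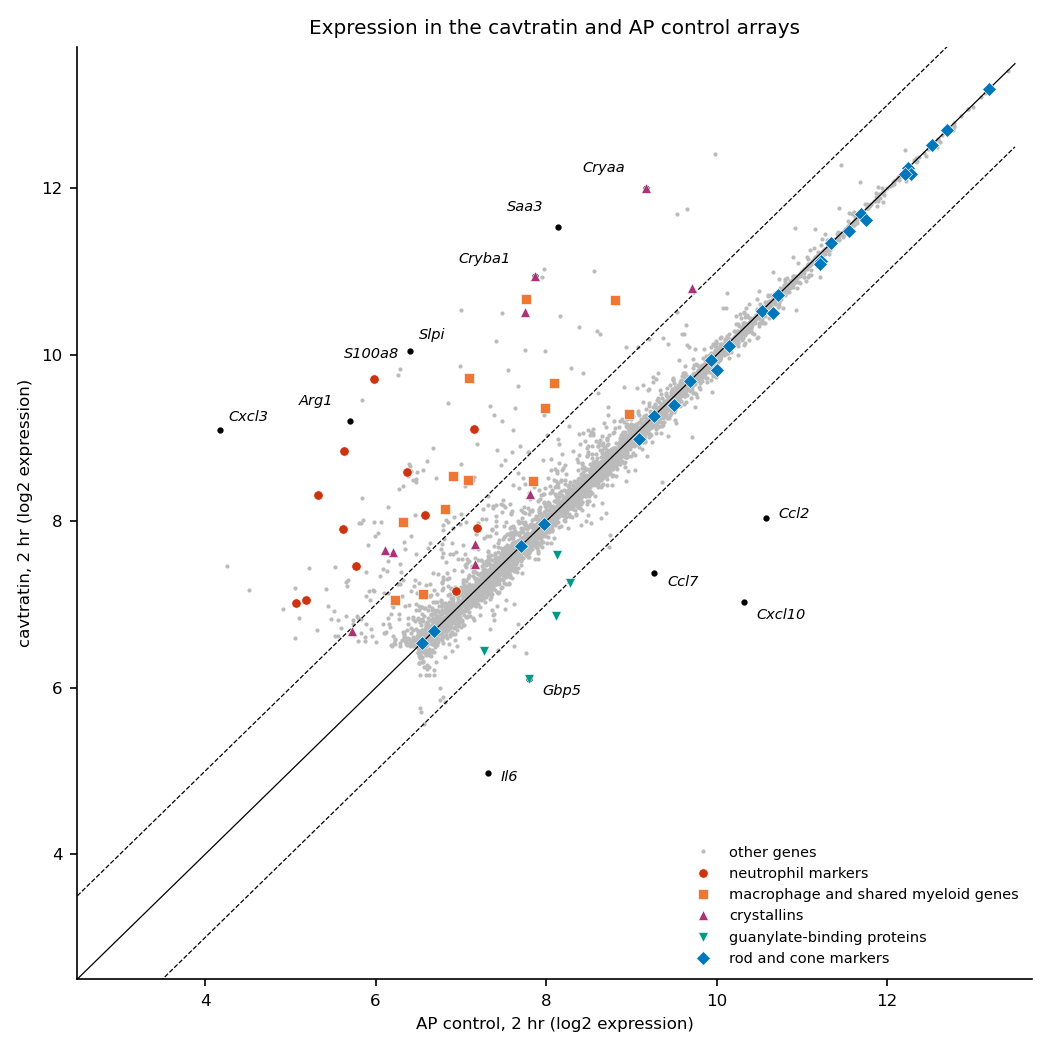
Each point is 1 of 11477 genes that reached the floor, with the AP control level on the x axis and the cavtratin level on the y axis, both in log2 units, and dashed lines mark 2-fold. Neutrophil, shared myeloid and crystallin genes lie mostly above the diagonal, guanylate-binding proteins beneath it, and rod and cone markers along it.

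The largest difference was that of Cxcl3, a chemokine that attracts neutrophils, at 4.17, 9.10 and 7.01, a difference of 4.93. Its AP control value is far below the floor, so the size of this fold is uncertain. S100a8, a calcium-binding alarmin of neutrophils and monocytes, was at 5.98, 9.72 and 7.44, and Slpi, an inhibitor of leukocyte elastase, at 6.40, 10.04 and 8.66. Both were lowest in AP control and highest in cavtratin. Clec4e, a lectin receptor for damaged cells and mycobacterial lipid, stood above the floor in every array, at 6.998, 10.54 and 8.77. Acod1, the mitochondrial enzyme that makes itaconate in activated macrophages, was at 7.98, 11.03 and 9.16. Hcar2, Il1f9, Arg1, Ccrl2, Saa3, Clec4d, Stfa2l1, Cryba1, Wfdc17 and Fpr2 complete the 15 largest, with differences between 2.99 and 3.62. In each of the 15 but Cryba1, a lens crystallin, the Cav1-shRNA value lay between the other arrays.

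Lower values were led by Cxcl10, the interferon-inducible ligand of CXCR3, at 10.32, 7.03 and 6.42, a difference of -3.29. Ccl2, the main attractant of CCR2-bearing monocytes, was at 10.58, 8.04 and 7.46, and Ccl7, a related ligand, at 9.27, 7.38 and 6.57. Il6 was at 7.31, 4.98 and 4.34. For these 4 genes AP control held the highest value of the 3 arrays and Cav1-shRNA the lowest. Plat, tissue plasminogen activator, was at 8.74, 7.69 and 8.09. The 15 lowest also took in Gbp5, Gbp9, Gbp10, Lif and Ptx3, all at least 2-fold lower, and Tnfaip6, Car13, Vcam1, Cfb and Cxcl1, whose differences from -0.98 to -0.90 fell short of 2-fold. The threshold passed between Ptx3 at -1.01 and Tnfaip6 at -0.98. On the higher side it passed between Osm, at 1.004, and S100a11 and Fcgr3, at 0.99.

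**Figure D2:**
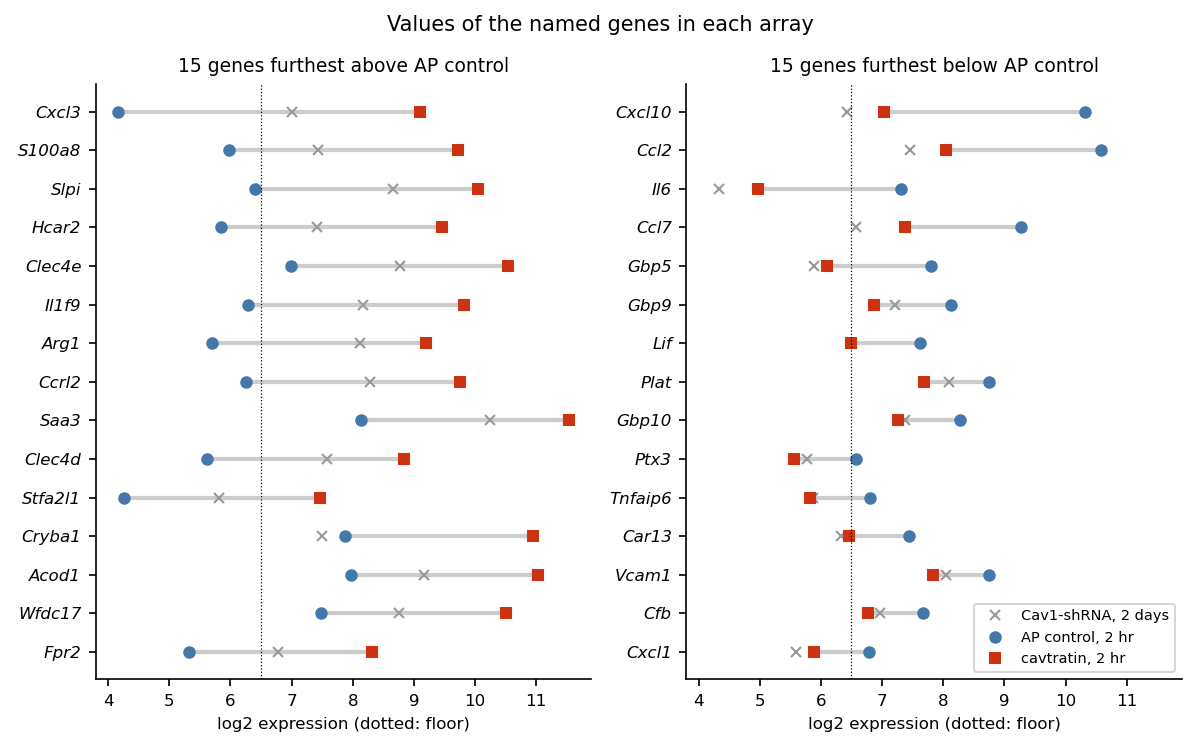
The y axes list the 15 genes furthest above AP control (left) and the 15 furthest beneath it (right), and the x axis gives the log2 value in each of the 3 arrays, with the floor dotted. Cavtratin is rightmost for the former and AP control for the latter, and Cryba1 is the higher gene whose Cav1-shRNA value, 7.50, lies beneath AP control.

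Promoter sequences are shown for 5 genes, because these chemokine, cytokine and guanylate-binding protein genes differed in opposite directions and all 5 hold a match to an NF-kB motif. Cxcl3 and Cxcl2 were higher in cavtratin, and Il6, Cxcl10 and Gbp5 lower. NF-kB, the transcription factor of inflammatory signalling, is known to bind kB sites, and interferon-activated factors bind the interferon-stimulated response element. The windows are the 250 bases before the RefSeq start site in GRCm38.p6, written on the gene's strand, with motif matches in capitals. They lie at chr5:90785851-90786100 on the plus strand for Cxcl3, chr5:90903649-90903898 on the plus strand for Cxcl2, chr5:30012864-30013113 on the plus strand for Il6, chr5:92348890-92349139 on the minus strand for Cxcl10 and chr3:142496684-142496933 on the plus strand for Gbp5.
Cxcl3: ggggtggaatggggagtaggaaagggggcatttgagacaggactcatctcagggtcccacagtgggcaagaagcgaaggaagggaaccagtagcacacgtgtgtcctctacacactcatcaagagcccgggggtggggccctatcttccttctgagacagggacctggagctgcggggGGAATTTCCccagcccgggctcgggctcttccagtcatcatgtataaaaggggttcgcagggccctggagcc
Cxcl2: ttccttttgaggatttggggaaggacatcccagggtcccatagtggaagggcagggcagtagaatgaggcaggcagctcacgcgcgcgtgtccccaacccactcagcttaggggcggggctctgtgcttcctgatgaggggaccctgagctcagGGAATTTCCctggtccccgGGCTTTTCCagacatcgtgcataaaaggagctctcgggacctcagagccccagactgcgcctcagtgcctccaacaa
Il6: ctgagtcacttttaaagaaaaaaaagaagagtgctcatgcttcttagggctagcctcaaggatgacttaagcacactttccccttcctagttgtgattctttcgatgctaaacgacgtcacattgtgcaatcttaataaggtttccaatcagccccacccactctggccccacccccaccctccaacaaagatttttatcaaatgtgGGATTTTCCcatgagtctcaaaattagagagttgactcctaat
Cxcl10: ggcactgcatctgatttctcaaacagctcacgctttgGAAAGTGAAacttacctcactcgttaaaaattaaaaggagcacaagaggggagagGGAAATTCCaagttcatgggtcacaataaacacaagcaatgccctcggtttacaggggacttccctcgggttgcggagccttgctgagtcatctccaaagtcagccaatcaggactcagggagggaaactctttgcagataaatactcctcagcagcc
Gbp5: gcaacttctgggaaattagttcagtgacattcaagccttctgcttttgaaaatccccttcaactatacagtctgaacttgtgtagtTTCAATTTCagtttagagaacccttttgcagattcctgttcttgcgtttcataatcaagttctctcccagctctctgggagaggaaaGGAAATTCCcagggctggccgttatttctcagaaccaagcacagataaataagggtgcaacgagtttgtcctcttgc

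The kB search used the letters GGNNTTTCC and the interferon search GAAANNGAA, on both strands, and the matches in these windows do not overlap. Cxcl3 holds 1 kB match, 72 to 64 bases before the start, and Cxcl2 holds 2, at 96 to 88 and at 77 to 69. Il6 holds 1 at 43 to 35. Cxcl10 and Gbp5 hold a match to each motif, with the kB letters on the opposite strand at 158 to 150 and at 77 to 69. Their interferon letters are at 213 to 205 in Cxcl10 and, on the opposite strand, at 164 to 156 in Gbp5. Of all 32851 windows of this length 4.93% hold the kB letters and 7.13% the interferon letters, and by gene the shares are 5.62% and 8.18% of 27025. Of the 123 higher genes with a window, 14 hold the kB letters and 20 the interferon letters. The 14 are Cxcl3, Cxcl2, Ccrl2, Il1rn, Nlrp3, Nfkbia, Saa3, Acod1, Casp4, Slfn2, Mrgpra2a, Pirb, F13a1 and the lens crystallin Cryaa. Of the 5 lower genes with a window 3 hold the kB letters and 2 the interferon letters. The 3 are Il6, Cxcl10 and Gbp5, which are shown because they hold a match. The remaining lower genes had no window, Ccl2, Ccl7, Gbp9 and Gbp10 among them. These are matches of letters and no measure of binding.

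CXC chemokine ligands with the ELR motif act on Cxcr2 and draw neutrophils. Their genes did not differ in 1 direction, with 2 of 6 measured members at least 2-fold higher, 0 lower and a median of 0.56, against 0 over all genes. Cxcl2 was at 8.16, 10.47 and 8.39, and so reached 2.31 above AP control, as did Cxcl3 by more. Cxcl1, the third common member, was at 6.78, 5.89 and 5.60, and Cxcl5 was below the floor throughout, at 6.20, 5.37 and 4.92. The receptor gene Cxcr2 was at 6.58, 8.08 and 6.81. Cxcr4, the receptor that retains leukocytes in bone marrow, was at 6.90, 7.74 and 7.37. Of the 9 other CXC ligands, 6 were below 0 and 1 above, with a median of -0.20. Cxcl10 was the only member of them past 2-fold, and its relative Cxcl9 was below the floor at 6.08, 5.73 and 5.99. Cxcl16, a membrane-bound ligand, was at 8.77, 8.44 and 8.79.

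Among 16 CC chemokine ligands, 3 were higher and 2 lower by 2-fold or more, with a median of 0. Ccl3, made by macrophages and microglia, was at 9.98, 12.41 and 10.84. Ccl4, a related chemokine, was at 6.38, 8.54 and 6.39. Ccl6 was at 6.02, 7.86 and 6.46. The lower pair, Ccl2 and Ccl7, are both ligands of Ccr2, whose own gene was below the floor, at 5.90, 6.10 and 6.10. Ccl12, another ligand of Ccr2, was below the floor as well, at 4.92, 4.61 and 4.61. Ccl17, a ligand of CCR4, was at 6.53, 5.70 and 5.63, and Ccl5, a chemokine of T cells, at 8.49, 8.07 and 9.15. Of 9 receptor genes, Ccr1 at 5.22, 7.45 and 5.89 and Ccrl2 at 6.26, 9.75 and 8.28 were at least 2-fold higher, and none had a difference below 0. Ccr1 and Ccrl2 were beneath the floor in AP control and count only through their cavtratin values.

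In the interleukin-1 family, 4 of 9 ligand and antagonist genes were at least 2-fold higher and none lower, and the median was 0.48. Il1a was at 8.56, 11.01 and 8.53, and Il1b, the product of inflammasome-activated cells, at 9.65, 11.75 and 9.62. In both the Cav1-shRNA value was close to AP control and the cavtratin value stood above them by more than 2. Il1rn, the soluble receptor antagonist, was at 6.85, 9.43 and 8.10, and Il1f9, also called interleukin-36 gamma, at 6.28, 9.83 and 8.18. Il33, an alarmin of Muller glia, was at 9.26, 9.73 and 9.27, short of 2-fold. Of 9 receptors and binding proteins 1 was at least 2-fold higher, Il1r2, a decoy receptor that takes up interleukin-1 without signalling, at 5.62, 7.91 and 6.47. Agonists, antagonist and decoy therefore all stood higher in the same array.

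Of 7 ligand genes of the interleukin-6 family 2 were above 0, 2 below and 3 equal, with a median of 0. Il6 and Lif, the latter a cytokine of Muller glia that protects photoreceptors, were at least 2-fold lower, with Lif at 7.62, 6.50 and 6.50. Osm, a product of neutrophils and macrophages, was 2-fold higher, at 6.14, 7.14 and 6.32. The remaining 4 of 7 ligands lay within 2-fold. None of 9 receptor and transducer genes was 2-fold apart. Osmr, the oncostatin M receptor, was at 9.75, 9.38 and 9.60. Socs3, a feedback inhibitor induced by the shared receptor, was at 7.37, 7.91 and 7.37.

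Of 13 ligand genes of the tumor necrosis factor family only Tnf was at least 2-fold higher, at 7.34, 9.38 and 7.87, and 2 of the 13 reached the floor. Tnfrsf1b, which encodes the TNF receptor of leukocytes, was at 6.99, 9.86 and 8.50. Tnfrsf23, a decoy receptor of TRAIL, and its neighbour in the family Tnfrsf26 were at 5.84, 8.28 and 6.83 and at 5.66, 7.23 and 5.98. These were the 3 of 14 receptor genes past 2-fold. Of the 3, Tnfrsf23 and Tnfrsf26 were beneath the floor in AP control and count only through their cavtratin values.

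**Figure D3:**
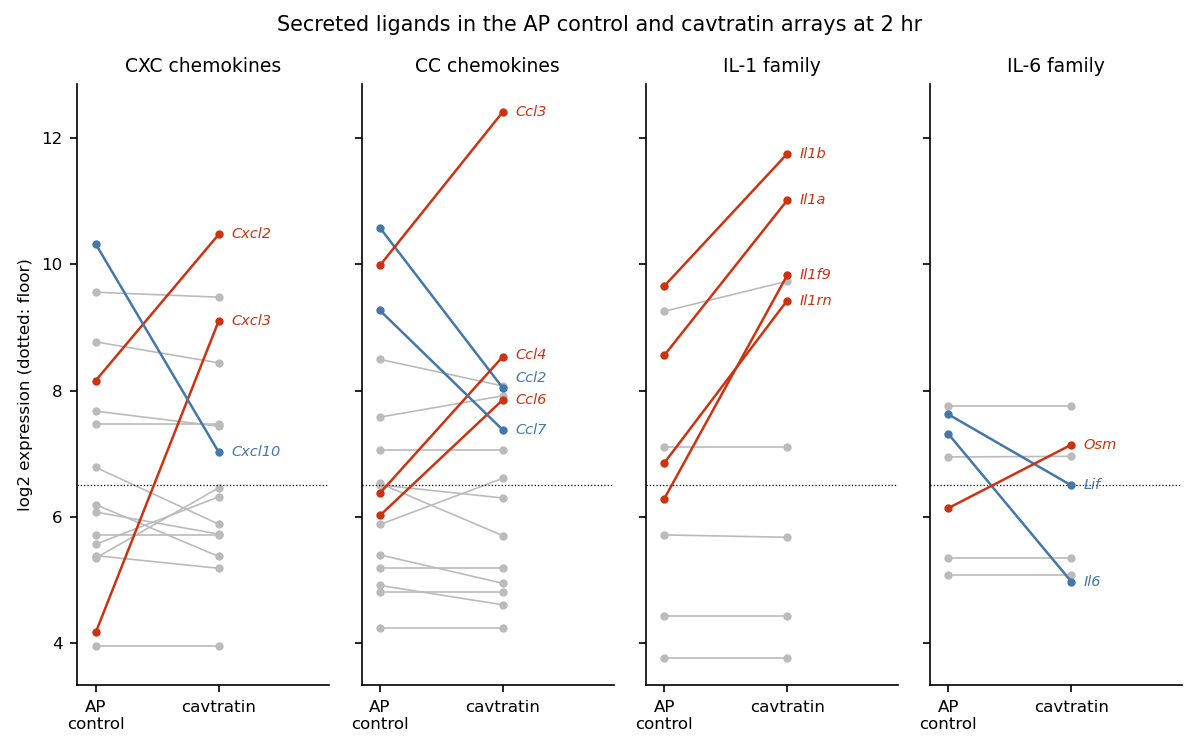
The panels hold the measured ligand genes of the CXC, CC, interleukin-1 and interleukin-6 families, and a line joins the log2 level of each gene (y axis) in AP control to that in cavtratin (x axis). Genes 2-fold or more apart are red where higher in cavtratin and blue where lower, and the interleukin-1 panel alone has no blue line. The dotted line is the floor.

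Signalling genes upstream of these ligands had members at least 2-fold higher and 0 lower. These were 1 of 15 NF-kB genes and 4 of 23 Toll-like receptor and adaptor genes, against 1.36% of all genes at the floor. Of the 4, Tlr13, Tlr6 and Irak3 were beneath the floor in AP control. Of 11 inhibitors and other regulators of NF-kB 10 had a difference above 0, with a median of 0.33. Nfkbia, the main inhibitor, was the 1 past 2-fold, at 8.94, 10.09 and 9.19. Tnip1 was at 7.27, 7.80 and 7.49 and Nfkbiz at 7.81, 8.27 and 7.74. The 4 subunit genes differed by at most 0.27. Among 11 Toll-like receptors, 8 were above 0, with Tlr13 at 5.82, 7.98 and 6.99 and Tlr6 at 5.53, 7.45 and 6.21 past 2-fold. Tlr3, the receptor of double-stranded RNA, was the 1 receptor below 0, at 8.41, 7.96 and 8.14. Cd14, the lipopolysaccharide co-receptor, was at 7.09, 9.73 and 7.67, and Irak3, an inhibitor of the same pathway, at 5.98, 7.99 and 6.80. The other 10 of 12 co-receptors and adaptors were within 2-fold.

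Most myeloid C-type lectin and Fc receptor genes were higher in cavtratin. Of 20 measured genes, 11 were at least 2-fold higher, against 1.36% of all genes at the floor. Among the 20, 18 were above 0 and none below, and the median was 1.07. The floor was reached by 15 of them in cavtratin and by 7 in AP control, so many pass it only through the array where they are high. Clec4d, Clec4e, Clec4n, Clec5a and Clec4a3 made up the lectins past 2-fold. Clec5a, a receptor that signals through DAP12, was at 4.92, 6.95 and 5.79, while Clec7a, the beta-glucan receptor, was at 7.59, 7.93 and 7.60. Fcer1g, the signalling chain of Fc receptors, was at 8.81, 10.67 and 9.90. Tyrobp, which encodes DAP12, was at 7.98, 9.36 and 8.75, and Syk, the kinase downstream of both, at 5.42, 7.18 and 6.32. Fcgr2b, the inhibitory Fc receptor, was at 7.47, 8.68 and 8.07 and the activating Fcgr4 at 5.98, 7.17 and 6.64.

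Of 17 inflammasome genes only 5 reached the floor in cavtratin and 3 in AP control, and the median over all 17 was 0. The 2 that were at least 2-fold higher were beneath the floor in AP control and count only through their cavtratin values. Nlrp3, a sensor of membrane damage, was at 6.07, 7.99 and 6.33, and Casp4, which detects intracellular lipopolysaccharide, at 5.65, 7.27 and 6.08. Txnip, a binding partner of Nlrp3, was at 7.61, 8.44 and 8.16.

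Genes of the interferon response did not move as a block. None of 21 type I interferon targets was 2-fold apart, with 9 above 0, 7 below and a median of 0. Ifit1 was at 9.71, 9.02 and 8.90, whereas Oasl1 was at 6.96, 7.55 and 6.81 and Oas2 at 6.78, 7.26 and 6.82. Irf7, which amplifies type I interferon, was at 8.05, 8.62 and 8.44, and Stat2 at 8.52, 9.08 and 8.63. Guanylate-binding proteins, large GTPases induced mainly by interferon gamma, lay on 1 side. Of 9 measured members 8 were below 0 and none above, 5 reached the floor in AP control and 3 in cavtratin, and the median was -0.83. Gbp5 was at 7.80, 6.11 and 5.88, Gbp9 at 8.12, 6.87 and 7.21, and Gbp10 at 8.28, 7.26 and 7.38. These were the 3 at least 2-fold lower, and AP control was the highest array for each. Gbp3 at 7.27, 6.45 and 6.58 and Gbp7 at 8.13, 7.59 and 7.58 were within 2-fold, and Gbp4 was below the floor throughout, at 6.13, 4.07 and 4.63. Probes of these closely related genes may share target sequence, so the members are not independent of each other. The 4 immunity-related GTPases had a median of -0.11, with Iigp1 at 6.62, 6.25 and 6.30.

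Complement and antigen presentation genes were within 2-fold in all 20 and 16 measured members, with a median of 0 in both. Cfb, factor B of the alternative pathway, was at 7.67, 6.77 and 6.97. C5ar1, a receptor of the anaphylatoxin C5a, was below the floor at 5.15, 6.07 and 5.71. C3ar1, the anaphylatoxin receptor of microglia, was at 7.14, 7.68 and 7.87. C1qa, C1qb and C1qc, which microglia express, differed by 0.04, -0.09 and 0.00.

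**Figure D4:**
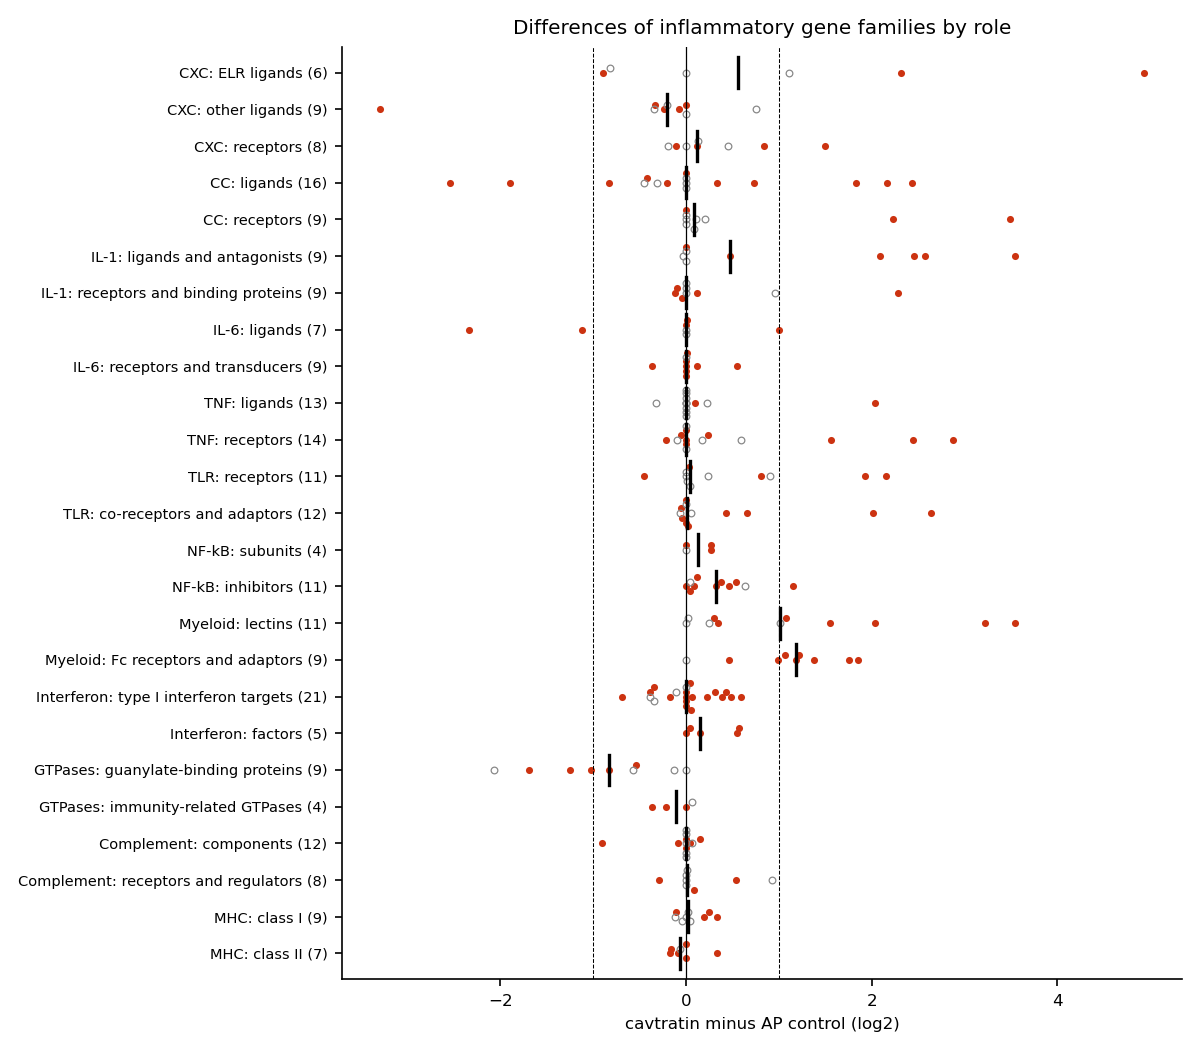
Each row on the y axis is a gene list or its subgroup, each point is 1 measured member (open where below the floor), and the x axis is cavtratin minus AP control in log2 units with the list median as a bar. Lectins and Fc receptors lie mostly right of 0, with medians of 1.01 and 1.19, and guanylate-binding proteins left of it, at -0.83.

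Enzymes of lipid and arginine mediators differed in a few members each. Ptgs2, the inducible cyclooxygenase, was at 8.60, 10.29 and 7.79, so its Cav1-shRNA value was the lowest of the 3. Ptafr, the receptor of platelet-activating factor, was at 6.68, 8.89 and 7.67, and these were the 2 of 27 genes of the prostaglandin and leukotriene list past 2-fold. Alox5ap, which hands arachidonic acid to 5-lipoxygenase, was at 8.16, 8.93 and 8.68. Arg1 was at 5.70, 9.20 and 8.12, and Nos2, the inducible nitric oxide synthase that competes with it for arginine, at 6.41, 8.61 and 7.30. Both enzymes thus stood higher in the same array, while the other 9 of 11 enzyme genes were within 2-fold. Arg1 and Nos2 were beneath the floor in AP control and count only through their cavtratin values.

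Immediate-early genes, which respond within minutes to stimulation, were mostly above 0, in 20 of 35, with a median of 0.025. Nr4a3 was the 1 past 2-fold, at 6.09, 7.14 and 5.92. Dusp1, a phosphatase that ends MAP kinase signalling, was at 8.27, 9.14 and 8.42, and Zfp36, which destabilises cytokine messages, at 8.49, 9.09 and 7.998. Egr2 was at 7.42, 6.99 and 7.24.

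Of 13 Nrf2 targets 10 were above 0, with a median of 0.20. Hmox1, heme oxygenase 1, was the 1 at least 2-fold higher, at 7.39, 9.28 and 8.67, followed by the ferritin chain gene Fth1 at 11.46, 12.28 and 11.88. Egln3, an oxygen sensor, was at 6.56, 8.62 and 7.46, and Pfkfb3, which raises glycolytic flux, at 7.05, 8.43 and 7.40. The other 21 of 23 hypoxia and glycolysis genes were within 2-fold, and Vegfa, the hypoxia-induced endothelial growth factor, was at 9.41, 9.51 and 9.41. None of 20 heat shock and chaperone genes was 2-fold apart, and Hspa1b, with the largest difference, was at 8.72, 9.38 and 8.97.

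Secreted granulocyte and acute-phase genes had 8 of 22 members at least 2-fold higher, against 1.36% of all genes at the floor. None of the 22 was below 0, and the median was 0.29. The floor was reached by 10 of them in cavtratin and by 4 in AP control. Saa3 was at 8.14, 11.53 and 10.25, and Wfdc17 at 7.49, 10.50 and 8.76. Hp, haptoglobin, was at 6.32, 8.42 and 7.40. S100a9, the partner of S100a8 in calprotectin, was at 5.77, 7.46 and 6.02. Lcn2, an iron-siderophore carrier made by neutrophils and reactive glia, was already bright in AP control and within 2-fold, at 10.93, 11.52 and 11.16.

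The plasminogen and coagulation list had 4 of 13 members at least 2-fold higher and 1 lower. Over all genes at the floor the shares were 1.36% and 0.0958%. Plat stood lower, while Serpinb2, an inhibitor of plasminogen activators, was at 6.79, 7.89 and 5.56. Plaur, the urokinase receptor, was at 7.03, 7.71 and 6.61. F10, coagulation factor X, was at 6.47, 8.51 and 7.52, F13a1 at 5.99, 7.82 and 7.08, and Thbd, thrombomodulin, at 5.78, 6.87 and 6.14. Activator and inhibitor of plasmin formation differed in opposite directions, and genes of both clotting and its control were higher. Of 16 Mmp and Adam family genes 9 were above 0 and 4 below, with a median of 0.068. Mmp8, neutrophil collagenase, was at 5.19, 7.05 and 6.14, and Adam8 at 6.41, 7.82 and 7.05, the 2 past 2-fold, while the aggrecan-cleaving Adamts1 was at 9.36, 8.48 and 8.38 and Adamts4 at 6.52, 5.76 and 5.72. Mmp9 was at 7.19, 7.92 and 7.39. Ptx3 and Tnfaip6, which crosslink hyaluronan, were at 6.57, 5.56 and 5.77 and at 6.81, 5.82 and 5.86. Thbs1, an activator of latent TGF-beta and inhibitor of angiogenesis, was at 7.96, 10.94 and 9.16, and Tgfbi, a matrix protein, at 7.48, 9.21 and 8.86. The other 25 of 27 genes of that list were within 2-fold.

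Of 7 leukocyte integrin genes 3 were above 0, 1 below and 3 equal, with a median of 0. Itgam and Itgb2, which together form the integrin Mac-1, were the 2 past 2-fold and were at 6.32, 7.998 and 7.15 and at 6.70, 8.53 and 7.71. Selplg, the leukocyte ligand of selectins, was at 7.72, 8.53 and 8.09. Vcam1, an adhesion molecule of endothelium, was at 8.75, 7.83 and 8.05, and Sele, E-selectin, was below the floor at 5.51, 4.87 and 5.37. None of the 8 selectin and immunoglobulin-like genes passed 2-fold, with 3 above 0, 4 below and a median of -0.030.

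The genes nearest to the agent itself were level. Cav1, the source of the scaffolding domain in cavtratin, had exactly equal values in both arrays, at 8.26, as had Cav2, at 8.75, and Cavin3, at 7.93. Such ties were found in 54.5% of all genes at the floor, so they are no trait of these genes. Of the 7 caveolins and cavins, 3 reached the floor and none was 2-fold apart. Cavin1 was at 6.29 and 6.44, Cav3 at 4.73 and 4.51, Cavin2 at 6.25 in both and Cavin4 at 5.09 in both, all below the floor. Of 8 partner genes Ehd1, an ATPase of endocytic recycling, differed most, at 8.06, 8.75 and 8.44.

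Junction and vascular genes were close to level too. The exception was Cldn1, a tight junction claudin, at 6.85, 7.99 and 7.01, the 1 of 11 junction genes past 2-fold. Cldn5, the main claudin of retinal endothelium, was at 6.94, 6.77 and 7.15, and Ocln and Tjp1 had equal values in both arrays, at 6.57 and 9.77. The 14 VEGF and angiopoietin genes differed by -0.12 to 0.24, the upper end being Kdr, a VEGF receptor, at 9.63, 9.87 and 9.87. Ednrb, the endothelin receptor of glia and endothelium, was at 7.98, 10.05 and 8.94, while its ligand genes Edn1 and Edn2 were at 6.56, 6.32 and 6.30 and at 8.21, 8.37 and 8.37. Ednrb was the 1 of 6 endothelin genes past 2-fold.

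Receptors for metabolites and chemoattractants had 4 of 14 members at least 2-fold higher, against 1.36% of all genes at the floor. None of the 14 was below 0, and the median was 0.24. Hcar2, the receptor of hydroxybutyrate and niacin, was at 5.84, 9.46 and 7.41, and Fpr2, a formyl peptide receptor of neutrophils, at 5.33, 8.32 and 6.78. P2ry2, which binds extracellular ATP and UTP, was at 6.30, 7.39 and 6.82, and Ptafr was the fourth. Of these 4, Hcar2, Fpr2 and P2ry2 were beneath the floor in AP control and count only through their cavtratin values. Olr1 and Msr1, scavenger receptors, were at 5.81, 7.98 and 6.32 and at 6.81, 8.15 and 7.43, and Ch25h, an interferon-inducible enzyme that makes 25-hydroxycholesterol, at 6.75, 6.00 and 5.91. The 10 cholesterol synthesis genes differed by -0.15 to 0, with 7 below 0.

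Retinal neurons were described by 6 lists with 72 measured markers, of which 67 reached the floor. None was 1.5-fold apart, and differences ran from -0.31 to 0.05. Of the 72, 39 were below 0, 3 above and 30 equal, with a median of -0.0043, so the values were small and leaned to the lower side. Over all genes at the floor 25.9% were below 0 and 19.6% above. Gnat1, rod transducin, was at 13.19 in all 3 arrays, and Prph2, the disc rim protein of photoreceptors, at 12.70, 12.70 and 12.71. The largest rod difference was that of Rcvrn, recoverin, at 11.21, 11.09 and 11.27. The cone opsin genes Opn1sw and Opn1mw were at 11.75, 11.62 and 11.77 and at 10.67, 10.50 and 10.62. Ganglion cell markers had the lowest list median of the neuron classes, -0.070, with 10 of 15 below 0 and none above. Pou4f1, a ganglion cell transcription factor, was at 7.45, 7.15 and 7.41, while Thy1 and Nefm were equal in all 3 arrays, at 8.86 and 7.28. Bipolar cells had 7 of 11 markers below 0, the largest difference being that of Cabp5 at 9.99, 9.73 and 9.82. Transmitter receptor genes had the same lean, with 16 of 23 glutamate, GABA and glycine receptor genes below 0, none above, and a lowest difference of -0.27 in Gria4.

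Muller glia markers were level in sum, with 4 of 15 above 0, 7 below and a median of 0. Rlbp1 and Glul, the retinaldehyde-binding protein and glutamine synthetase of these cells, were at 10.89, 10.89 and 10.99 and at 11.54, 11.54 and 11.57. Vim, the intermediate filament of glia, was at 11.68, 12.08 and 11.77, and Aqp4, the water channel of glial endfeet, at 9.74, 9.54 and 9.81. Vim is also expressed in lens and leukocytes. Gfap, the marker of reactive glia, was at 7.96, 8.33 and 8.32. No gliosis marker was 2-fold apart.

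Myeloid markers fell into groups with different values. None of 11 resident microglia markers was 2-fold apart. Equal values were found in 7 of the 11, near the 61.6% of all genes. P2ry12 and Cx3cr1, receptors that mark homeostatic microglia, were at 6.87 in all 3 arrays and at 7.57, 7.59 and 7.73. Tmem119 and Sall1 were below the floor, so the list rests on 6 markers. Of 18 macrophage and shared myeloid genes 9 were at least 2-fold higher, against 1.36% of all genes at the floor. Differences were above 0 in 15 and below in 1, with a median of 1.08. Cd53, a pan-leukocyte tetraspanin, was at 7.76, 10.67 and 9.39, Cd68, a lysosomal protein of phagocytes, at 8.09, 9.67 and 9.16, and Ptprc, which encodes CD45, at 7.09, 8.49 and 7.71. Adgre1, which encodes F4/80, was at 6.23, 7.06 and 7.19, and Aif1, Mrc1 and Cd163 were below the floor. The summed linear signal of the 18 genes was 2913 in AP control, 8337 in cavtratin and 5402 in Cav1-shRNA.

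Neutrophil markers had 10 of 18 members at least 2-fold higher, against 1.36% of all genes at the floor, with a median of 1.59. Of the 18, 12 reached the floor in cavtratin and 4 in AP control. Many therefore pass it only through the array where they are high. Csf3r, the G-CSF receptor, was at 7.15, 9.10 and 7.71, Retnlg at 5.07, 7.02 and 5.41, and Trem1, which amplifies inflammatory signals, at 6.37, 8.60 and 7.13. Mmp8 and Mmp9, granule proteases described above, reached the floor in cavtratin, and 6 other granule and lineage markers were below it in both arrays, with Ly6g at 4.92 and 5.47, Mpo at 4.82 and 4.77, Elane at 5.82 and 5.76, Camp at 3.59 in both, Ltf at 5.28 and 5.43 and Ngp at 3.69 and 3.96. The summed linear signal of the 18 genes was 1094 in AP control, 4087 in cavtratin and 1676 in Cav1-shRNA. Several of these genes stand in the ligand, receptor and secreted protein lists above, so those counts and this one are not independent, and the part of arriving leukocytes in the cytokine and receptor differences was not tested.

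Monocyte markers were mixed. F13a1 and Ms4a6d, the latter at 6.14, 7.40 and 6.99, were the 2 of 12 at least 2-fold higher, while Ly6c2, the marker of inflammatory monocytes, was at 6.59, 6.16 and 8.08. In the Cav1-shRNA array at 2 days Ly6c2 thus had its highest value. Of 13 T and NK cell markers only Ccl5 reached the floor, and of 8 B cell markers only Ighm, at 6.95, 6.80 and 6.87. Dendritic and mast cell, oligodendrocyte and proliferation markers had medians of 0 and no member 2-fold apart, and none of 5 red cell and platelet genes reached the floor.

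Endothelial markers were within 2-fold in all 15, with 9 above 0, 2 below and a median of 0.061. Emcn, endomucin, was at 7.09, 7.52 and 7.52, Pecam1 at 7.78, 8.17 and 8.13, and Cdh5, VE-cadherin, at 7.72, 7.99 and 8.24. Pecam1 is also found on leukocytes. Pericyte markers had a median of 0, with Acta2 at 8.13, 8.59 and 8.50. Retinal pigment epithelium markers had 8 of 15 above 0 and a median of 0.094, led by the melanogenic Dct at 7.99, 8.40 and 8.08, while Rpe65 was at 7.63 in both arrays of the comparison.

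Of 16 measured crystallins, the refractive proteins of the lens, 10 reached the floor in cavtratin and 7 in AP control. Of the 16, 6 were at least 2-fold higher, against 1.36% of all genes at the floor. Differences were above 0 in 12 and below in 1, with a median of 0.76. Cryaa was at 9.18, 12.00 and 8.96, Cryba1 at 7.87, 10.95 and 7.50, and Crygs at 7.76, 10.52 and 7.76. In these 3 genes cavtratin alone was high, with AP control and Cav1-shRNA close to each other. Cryba2 at 6.20, 7.63 and 6.28 and Cryba4 at 6.11, 7.65 and 6.23 were also past 2-fold. Cryab, which retinal neurons and glia express too, was at 9.71, 10.81 and 9.90. The summed linear signal of the 16 crystallins was 2727 in AP control, 10729 in cavtratin and 2652 in Cav1-shRNA. Among 10 other lens genes Lgsn, lengsin, was past 2-fold, at 5.56, 6.81 and 5.44, and 7 lay below the floor, with Lim2, Gja3 and Dnase2b equal in both arrays. Mip, the aquaporin of lens fibres, had 2 probe sets that disagreed. That with the higher mean over the 3 arrays, used here, was at 6.80, 6.74 and 6.76, and the other, with the higher mean over the compared arrays, at 6.12, 7.82 and 6.36. With the latter Mip was more than 2-fold higher. The 2 probe sets of Cryaa differed by 2.83 and 1.14, in the same direction. Carry-over of lens tissue at dissection was not tested. Markers of cornea, ciliary body and iris had a median of 0 and none of 12 was 2-fold apart.

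**Figure D5:**
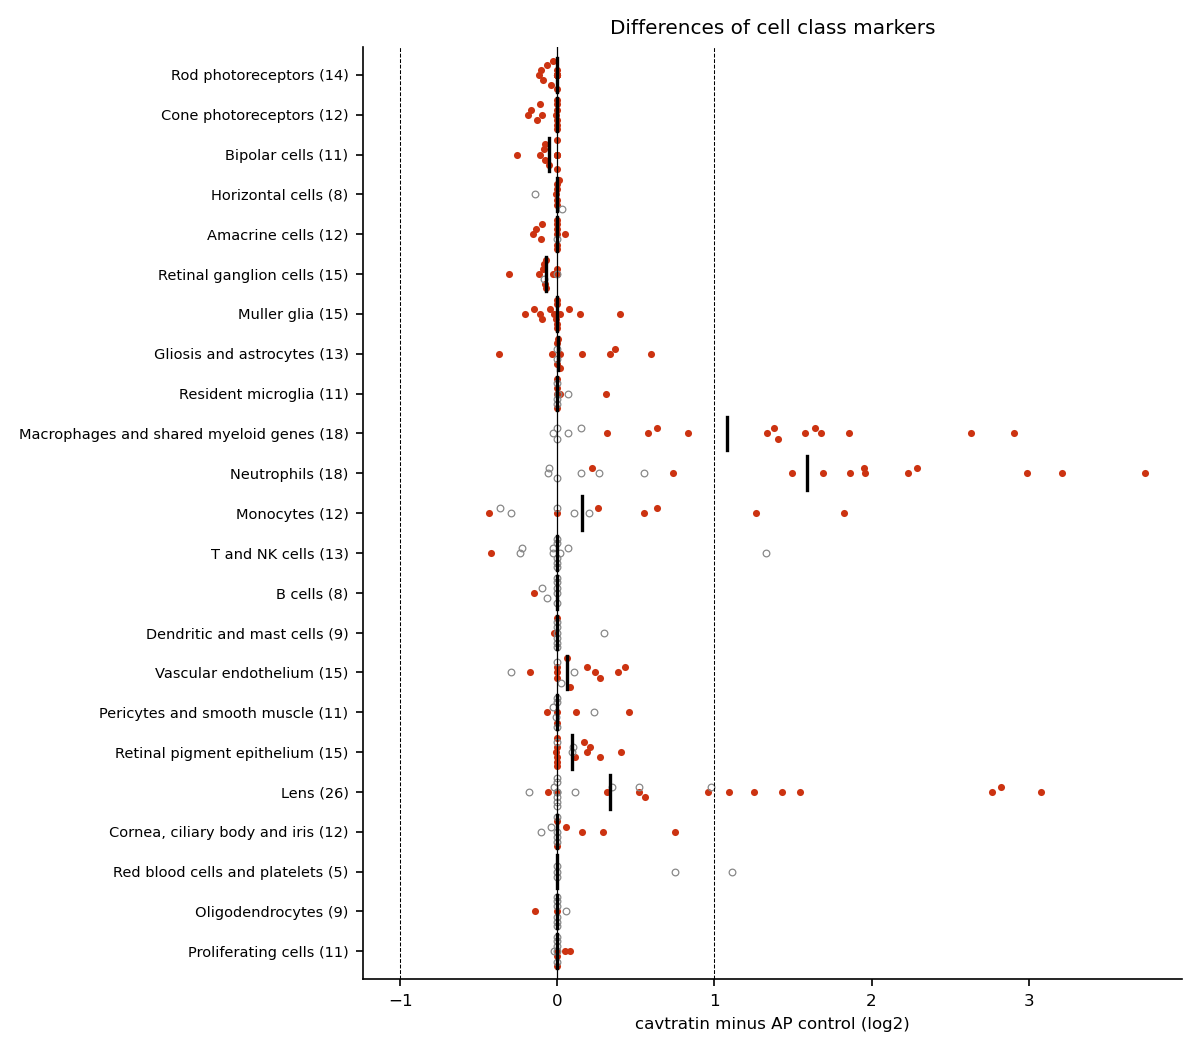
Each row on the y axis is a marker list of a cell class, each point is 1 measured marker (open where below the floor), and the x axis is cavtratin minus AP control in log2 units with the list median as a bar. Neuron and microglia markers lie near 0, and neutrophil, shared myeloid and lens markers extend to the right, with medians of 1.59, 1.08 and 0.33.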

How the data were processed

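Per the labels' protocols, retinae were pooled, RNA was isolated with TRIZOL, its integrity was read on a Bioanalyzer, and labelled cDNA was made with the Ambion WT Expression and GeneChip WT Terminal Labeling kits. The authors deposited 1 value per probe set and array, read here as log2 from its range. Log base, summarisation and scaling: not given in the sources used here. Of 41345 probe sets, the platform annotation gave 1 gene symbol to 23521, several to 1814 and none to 16010. The probe set with the highest mean over the 3 arrays stood for each of 22180 genes, 21994 of which matched RefSeq (GRCm38.p6) by Entrez identifier.

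Differences were computed with Python 3.11.15, pandas 2.3.3 and numpy 2.4.6, and figures drawn with matplotlib 3.10.9. A gene counted as apart at 2-fold or more if its higher array reached the floor. With 1 array per group no test could be run, and the number of arrays limits the precision. The comparison, the 34 pathway and 23 cell type lists (997 genes written, 902 measured) and the promoter genes and motifs were chosen with earlier results of these data known. Named were the 15 largest differences each way without predicted models, small RNAs, pseudogenes and olfactory or vomeronasal receptors, list members past 2-fold, up to 4 others per list, members that define a list, and all caveolins and cavins. Lists described by counts name no gene. Scaling, probe set choice, floor, threshold and list summary were varied, and the counting was tested on simulated data. Promoters came from RefSeq, and the set of windows used held none for Ccl2, Ccl4, Ccl7, Gbp9, Gbp10, Arg1 and Hcar2.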

Additional observations from a re-analysis of the deposited data

Results flagged for a closer look

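Probe sets outside the comparison of named genes also held large differences. Of 5617 probe sets at or above the floor for which the annotation lists no symbol, 22 (0.392%) stood 2-fold or more above AP control and 17 (0.303%) as far beneath it, with differences from -2.01 to 3.94. Of 827 with several symbols, 8 (0.967%) were higher and 3 (0.363%) lower, with differences from -2.87 to 2.25. Probe sets with 1 symbol had shares of 1.35% and 0.0925%. The transcripts behind these probe sets are unnamed here. With 1 array per group, no array could be set apart from replicates of its own group.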

How the results depend on the processing

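The 156 higher and 11 lower genes stayed within 1.5 times under centring of each array (151 and 13), quantile normalization (156 and 10), lowess subtraction (156 and 11), the mean of probe sets (154 and 11), the probe set brightest in the compared arrays (157 and 11), a floor at the 25th percentile (166 and 14) and no floor (167 and 15). A floor at the 75th percentile left 81 and 5, both arrays at the floor 71 and 7, a threshold of 1.5-fold 251 and 27, and 3-fold 86 and 5. No median of at least 0.1 in size changed sign. Of the smaller ones 15 did under at least 1 alternative, 13 of them to values within 0.03, selectins and immunoglobulin-like genes to 0.16 over members at the floor and cholesterol synthesis and transport to 0.14 as a mean. The 3 scalings moved none by more than 0.031. Means of members in place of medians were 1.11 for ELR ligands, -0.42 for other CXC ligands, 0.34 for CXC receptors, 1.23 for interleukin-1 ligands, 1.21 for lectins, 0.38 for Nrf2 targets, 1.18 for granulocyte proteins (secreted 1.27, stefins 0.95), 0.82 for metabolite receptors, 1.40 for neutrophils, 0.31 for monocytes, 0.69 for lens and 1.01 for crystallins. Medians over members with a mean at or above the floor, which support nothing because the differences help decide which members pass, were 3.62 for the 2 ELR ligands left, 0.48 for CXC receptors, 2.27 for interleukin-1 ligands, 1.78 for lectins, -0.83 for interferon-inducible GTPases, -1.02 for guanylate-binding proteins, 2.56 for granulocyte proteins and for their secreted members, 0.71 for metabolite receptors, 1.40 for macrophages, 2.09 for neutrophils, 0.63 for monocytes, 1.09 for lens and 1.43 for crystallins. Of 214 named genes 11 moved by more than the spread of probe sets with the mean of their probe sets: Cryaa to 1.98, H2-Q10 to 1.15, Pim1 to 0.68 and G0s2 to 0.57, so that the last 2 were no longer 2-fold apart, and, within 2-fold, Ehd1 to 0.84, Mip to 0.82, Alox5ap to 0.42, Selplg to 0.40, Socs3 to 0.27, Ch25h to -0.38 and Ighm, whose difference was -0.15, to 0.0036. No paired analysis was possible because each group has 1 array. Low signal limits the folds of genes below the floor in 1 array, and differences between pools of animals cannot be told apart from those of treatment.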

Other observations

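Genes outside the written lists were chosen after their values were seen. They made up 72 of the 156 higher genes and 1 of the 11 lower ones, the pseudogene Ifi203-ps. Of 8 measured Schlafen genes, interferon-inducible genes of leukocytes, 4 reached the floor and 3 were at least 2-fold higher, with a median of 0.39. In AP control, cavtratin and Cav1-shRNA, Slfn4 was at 7.42, 10.16 and 7.85, Slfn2 at 6.40, 8.67 and 7.46 and Slfn1 at 5.89, 7.39 and 6.64. Slfn2 and Slfn1 were beneath the floor in AP control, so they count among the 4 only through their cavtratin values. Lilrb4a, an inhibitory receptor of myeloid cells, was at 9.53, 11.70 and 10.41, and Cd274, which encodes PD-L1, at 7.64, 9.36 and 8.02. Ikbke, a kinase of the interferon and NF-kB pathways, was at 6.15, 8.17 and 7.38, and Gadd45b, a stress-induced regulator of MAP kinases, at 8.63, 10.25 and 9.15. Hdc, the enzyme that makes histamine, was at 7.97, 9.28 and 8.30. Rac2, a GTPase of leukocytes, was at 7.66, 9.62 and 8.67 and Lcp1, a leukocyte actin bundler, was at 7.62, 9.10 and 8.22.

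Grouped by the letters that open their symbols, 443 of 476 gene families had no member 2-fold apart. The 200 Slc transporter genes at the floor held 2 that were higher, and the 284 Zfp zinc finger genes and 153 Tmem genes held 0. Of 78 measured Il genes 22 reached the floor, with 7 higher and 1 lower. Of 91 measured Cd genes 31 reached it, with 8 higher. Both families had a median of 0 over all measured members. A gene can reach the floor only through the array where it is high, so the counts at the floor lean to differing genes. Over all genes at the floor 1.36% were higher and 0.0958% lower. Of the called genes 6 had several probe sets, and these disagreed in G0s2, with differences of 1.14 and 0, Pim1, with 1.37 and 0, and H2-Q10, with 2.30 and 0.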
